A study of Schizosaccharomyces pombe with 72 samples.

Results

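Zinc uptake and zinc homeostasis genes were described in RNA-sequencing libraries of fission yeast (Schizosaccharomyces pombe). They are the 7 of 7014 annotated genes in the counts table whose symbol is zrt1, zhf1, zym1, loz1, cis4, zrg17 or adh4. The 7 were chosen by their levels in these same libraries, the CPM (counts per 1e+06 counts on genes, with TMM scaling) of each strain code in each of 6 growth conditions. Their levels and fold changes are therefore a description, and no test is given for them. Tests are given only for other genes. The lists of these were also chosen with earlier results of these data known, and zip2 and adh1 were followed after seeing the data.

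The study asked how cohesin and TORC1, the nutrient-sensing kinase complex, interact in gene expression, and sequenced wild-type, mis4-G1487D (the cohesin loader), mip1-R401G (the Raptor subunit of TORC1) and double mutant cells. The 72 libraries hold 4 strain codes with 3 replicates in each condition. V25 is cycling cells in the rich medium YES at 25°C, and V36.5 the same after a shift to 36.5°C for a doubling. G1_36.5 is cells carrying cdc10-129 that were arrested in G1 at 36.5°C. T0-N is cells moved from the synthetic medium EMM2 to EMM2 without nitrogen for 24 hr at 25°C. T4D25 and T4D36.5 are cells from these nitrogen-starved cultures after 4 further days at 25°C or 36.5°C. Strain codes 86, 92, 93 and 97 were used in all conditions except G1_36.5, which had strain codes 82, 83, 84 and 85. The RNA-sequencing strains listed by the study outside the G1 arrest share mat1-M-smt0, a deletion that prevents mating-type switching. The labels do not pair the codes with the genotypes, so the codes were compared as codes and no genotype comparison was made.

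The libraries held 1173880 to 7664476 counts on genes (median 4021412). The replicate number is called a batch in the labels, and batch 3 was shallower, with a median of 2148883 counts against 4686181.5 in batch 1 and 4844187 in batch 2. Marker genes were compared with the growth conditions. isp6, a protease gene of nitrogen-starved cells, ranged from 1449 to 2832 CPM in T0-N and from 56.2 to 145 CPM in V25. cdc22, a gene of S phase entry, ranged from 156 to 228 CPM in G1_36.5 and from 647 to 1282 CPM in V36.5. The heat response genes hsp16 and hsp104 followed less cleanly. Their log2 fold changes in V36.5 over V25 were 4.17 and 1.97, but the ranges overlapped. hsp16 was at 144 to 3945 CPM in V36.5 and at 4.26 to 475 CPM in V25. In T4D36.5 over T4D25 the log2 fold change was 2.13 for hsp16 and −0.29 for hsp104. A count of 3 corresponds to between 0.391 and 2.56 CPM in these libraries and was taken as the floor. This floor covers counting error only.

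Zinc is a cofactor of many enzymes and is toxic in excess, so cells balance its uptake, storage and export from the cytosol. In fission yeast, Zrt1 brings zinc through the plasma membrane. Zhf1 moves zinc into the endoplasmic reticulum, the Cis4 and Zrg17 proteins work together to supply zinc to the Golgi, and Zym1 is a metallothionein, a small protein that binds zinc. Loz1 is a zinc finger protein that represses genes such as zrt1 and adh4 when zinc is plentiful. In cells short of zinc, these genes are derepressed, an antisense RNA is made across adh1, which encodes the main zinc-containing alcohol dehydrogenase, and adh1 mRNA falls while the alternative dehydrogenase gene adh4 is induced. These points are background and were not measured in these samples.

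The promoters of the members were searched for the core CGNNGATC of the site that Loz1 recognises, on both strands and in the 1000 bases before each RefSeq gene start in ASM294v3. The core was present in 628 of 5113 promoters of protein-coding genes (12.3%). The longer Loz1 response element, which allows only A or C at the fourth base of the core and needs a T and then C or T from the second base after it, was present in 61 (1.19%). Among the members, zrt1 held 2 cores, adh4 held 2, loz1 held 4 and zhf1 held 1, and no core was found in the windows of zym1, cis4 and zrg17. The longer element was found once in zrt1 and once in loz1. The stretch of 250 bases before zrt1 (chrII:3606927-3607176, plus strand, ASM294v3) is shown because it holds the zrt1 core that extends to the longer element, at positions −194 to −187. Core letters are in capitals.
zrt1 promoter: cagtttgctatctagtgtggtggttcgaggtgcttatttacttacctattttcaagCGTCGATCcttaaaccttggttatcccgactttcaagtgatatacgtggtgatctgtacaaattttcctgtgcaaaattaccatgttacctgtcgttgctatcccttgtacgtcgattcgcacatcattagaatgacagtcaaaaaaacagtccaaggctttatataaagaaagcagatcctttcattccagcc

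The 150 bases that hold both cores of adh4 (chrI:158543-158692, minus strand, ASM294v3), which start at positions −720 and −672 from its RefSeq start, are shown for comparison, since adh4 is the other member for which strain code 86 lay above the rest in V25 and V36.5.
adh4 promoter: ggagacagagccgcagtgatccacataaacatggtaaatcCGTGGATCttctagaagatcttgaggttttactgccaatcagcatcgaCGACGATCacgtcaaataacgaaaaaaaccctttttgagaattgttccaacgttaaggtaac

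The longer element of loz1 starts at position −394 from its RefSeq start on chromosome I, and a further core starts at −383. That further core forms the end of the loz1 stretch below and is left in lower case there. The core of zhf1 starts at −681, also on chromosome I. Both are shown because loz1 and zhf1 carry the core while no strain code lay outside the range of the others for either gene.
loz1 site: tgttacttcaaCGCAGATCattcgtcgatc
zhf1 site: tcgtttatgaaCGAAGATCataaaacattg

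These matches describe letters in the reference sequence and say nothing about binding in these cells. Of the related genes described below, fmd1 (2 cores) and pho8 (1 core) held the core, and zip2, adh1 and fet4 held none in the same windows.

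zrt1 (SPBC16D10.06, chromosome II from 3607199 to 3609330 in ASM294v2, the build of the files) separated strain code 86 from the others. In V25, the strain 86 libraries were at 2312, 2154 and 2103 CPM. The other 9 libraries ranged from 481 to 721 CPM, so the groups did not overlap, and the ratio of means was 3.78. In V36.5, strain 86 was at 2274, 1446 and 2534 CPM, against 138 to 499 CPM in the other 9 libraries, and the ratio was 9.56. In T0-N, strain 86 was at 1041, 1286 and 864 CPM, against 88.7 to 181 CPM, and the ratio was 8.26.

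After the 4 further days of starvation at 25°C, the ranges overlapped. In T4D25, strain 86 was at 121, 76.0 and 48.2 CPM, and its lowest library lay inside the 24.1 to 55.3 CPM of the other 9 libraries. The other libraries of strain 86 lay above that range, and the ratio of means was 2.18. In T4D36.5, strain 86 was at 233, 227 and 45.0 CPM, against 8.34 to 27.6 CPM in the others. Replicate 3 of strain 86 was thus far below the other replicates of its group but still above every library of strains 92, 93 and 97. The ratio of means in T4D36.5 was 8.44 with all 3 libraries and 11.5 without that replicate. Among the other strains, 97 was the lowest in T4D25, at 24.1, 31.6 and 34.7 CPM (0.336% of genes had this strain below all others), and 92 in T4D36.5, at 17.2, 14.0 and 8.34 CPM (1.48%). In G1_36.5, where strain 86 was not used, zrt1 ranged from 129 to 434 CPM. Replicate 3 of strains 82 and 83 was the highest there, at 434 and 400 CPM, and the other 10 libraries were at or below 288 CPM.

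Across conditions, zrt1 was highest in cycling cells and lowest in the long-starved cells. Outside strain 86, the median was 572 CPM in V25, 217 CPM in G1_36.5, 190 CPM in V36.5, 127 CPM in T0-N, 36.0 CPM in T4D25 and 21.1 CPM in T4D36.5. The ranges of neighbours in this order overlapped between G1_36.5 and V36.5, between V36.5 and T0-N, and between T4D25 and T4D36.5, but not between V25 and G1_36.5 or between T0-N and T4D25. The log2 fold change of V36.5 over V25 was −0.11 in strain 86 and between −1.81 and −1.34 in the other strains. From V25 to T0-N it was −1.06 in strain 86 and between −2.77 and −1.86 in the others. From T0-N to T4D25 the order turned, with −3.77 in strain 86 and between −1.87 and −1.71 in the others. Over all strains the value was −2.29, and −1.78 without strain 86. The step from V25 to T0-N changed the medium from YES to EMM2 without nitrogen, and the part of the medium cannot be told apart from that of starvation.

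adh4 (SPAC5H10.06c, chromosome I from 156430 to 158307 in ASM294v2) showed the same split as zrt1 in cycling cells but not in starved cells. In V25, strain 86 was at 1875, 934 and 1769 CPM, against 140 to 202 CPM in the other 9 libraries, a ratio of means of 8.99. In V36.5, strain 86 was at 1816, 92.7 and 2651 CPM, against 40.5 to 85.6 CPM. Replicate 2 of strain 86 was therefore just above the highest library of the other strains, and the mean of strain 86 was 1520 ± 1305 CPM (SD, n = 3). The ratio of means was 26.1 with this library and 38.4 without it. In this same library zrt1 was at 1446 CPM, well above the other strains.

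In T0-N the direction was the opposite. The strain 86 libraries were at 99.8, 83.8 and 70.4 CPM, all below the 101 to 166 CPM of the others, with a ratio of 0.704, and 0.789% of genes lay below in this way. In T4D25 and T4D36.5 the strains overlapped, with adh4 between 84.8 and 143 CPM in all 24 libraries. In G1_36.5, adh4 ranged from 47.0 to 78.8 CPM. The log2 fold change from V25 to T0-N was −4.11 in strain 86 and between −0.57 and −0.41 in the others. The value over all strains, −1.43, was −0.53 without strain 86.

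**Figure D1:**
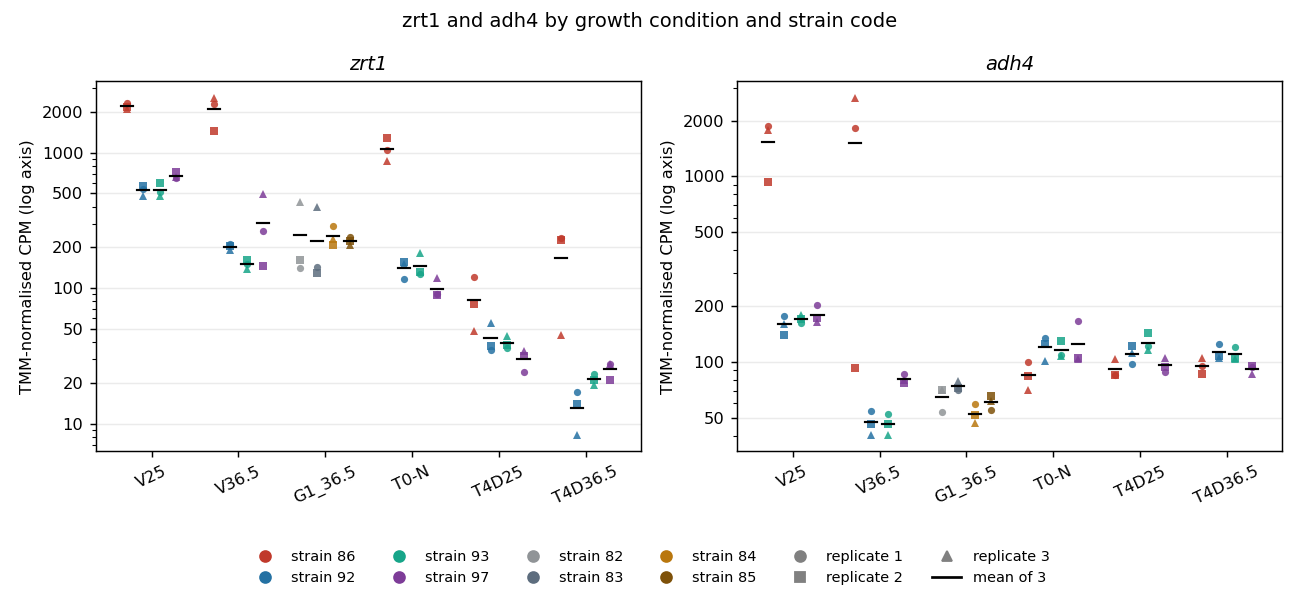
Levels of zrt1 (left) and adh4 (right) in TMM-normalised CPM on a log axis, by growth condition on the horizontal axis, with 1 point per library, colours for strain codes, shapes for replicates and a bar for the mean of 3. Strain 86 sits above the other strains for zrt1 in V25, V36.5, T0-N and T4D36.5, and for adh4 in V25 and V36.5 only, where 1 library of V36.5 lies at 92.7 CPM.

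How often a gene separates like this gives the background. All 3 libraries of strain 86 lay above the other 9 for 0.756% of 5553 genes in V25, 0.839% of 5963 in V36.5, 0.554% of 5955 in T0-N, 0.824% of 5950 in T4D25 and 0.564% of 6025 in T4D36.5. Of the 7 members, zrt1 and adh4 did so in V25 and V36.5, zrt1 did so in T0-N and T4D36.5, and no member did so in T4D25. Since these values chose the members, nothing is read from the counts. In V25 the edgeR quasi-likelihood test called 16% of genes between strains 86 and 92 and 17.5% between 86 and 93, but 0.108% between 86 and 97 (6 of 5553 genes). Few genes thus passed the test between strains 86 and 97 over the whole table.

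adh1 (SPCC13B11.01, chromosome III from 1589427 to 1592889 in ASM294v2) was low where adh4 was high. In V25, strain 86 was at 979, 1240 and 743 CPM, and the other 9 libraries ranged from 2355 to 3988 CPM. adh1 was the only gene called lower in strain 86 than in strain 97 in V25, with a log2 difference of −1.68 (standard error 0.239, adjusted p = 0.00803 edgeR quasi-likelihood, Benjamini-Hochberg). It was also lower in strain 86 than in strain 92 (−1.80, standard error 0.240, adjusted p = 0.000592) and strain 93 (−1.76, standard error 0.240, adjusted p = 0.00056). In 2 of the 3 fits without a replicate the difference from strain 97 was not called, with adjusted p up to 1.00, while those from strains 92 and 93 were called in all 3 cases. These pairs were chosen after seeing the data.

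In V36.5, adh1 in strain 86 was at 803, 2280 and 358 CPM, against 1727 to 2787 CPM in the other libraries. The high value was replicate 2, the library in which adh4 was low. adh1 did not pass the test among strains in V36.5 (adjusted p = 0.536, edgeR quasi-likelihood), nor in T0-N (adjusted p = 1.00), where fitting the batch as a block gave an adjusted p of 0.0238. In T0-N, adh1 was at 639, 699 and 1727 CPM in strain 86 and from 919 to 2237 CPM in the others. In T4D36.5 it did pass (adjusted p = 0.0247), with strains 92 and 93 at 460 to 776 CPM and strains 86 and 97 at 722 to 1656 CPM, which overlapped. Only 1 of the 3 fits without a replicate called it there. Antisense RNA across most of adh1 could not be read from these counts. The table has 3 features on the opposite strand of adh1 that overlap each other, and they held 2 counts in all 72 libraries together. The largest overlap with adh1 is 2894 bases. The strand setting of the counting is not given, so the adh1 counts may be affected by reads from these shared bases. A further opposite-strand RNA gene, SPNCRNA.1208, shares 332 bases with the start of adh1. In V25 it was at 2.71, 2.09 and 3.38 CPM in strain 86, from 7 to 8 counts, and between 0.213 and 2.89 CPM in the other 9 libraries, which overlapped. Over all conditions it stayed at or below 8.84 CPM.

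zip2 (SPCC126.09, chromosome III from 2131758 to 2134209 in ASM294v2), which encodes another transporter of the ZIP zinc and iron transporter family, had all 3 libraries of strain 86 above the other 9 in each of the 5 conditions that used it. In V25, strain 86 was at 99.2, 90.9 and 92.2 CPM, against 51.0 to 78.5 CPM in the other 9 libraries. In V36.5 it was at 75.7, 75.7 and 80.0 CPM, against 50.6 to 67.3 CPM. In T0-N it was at 142, 149 and 107 CPM, against 56.8 to 70.7 CPM.

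The same order was seen after long starvation, where the strains overlapped for adh4. In T4D25, zip2 was at 131, 138 and 131 CPM in strain 86, against 63.1 to 84.9 CPM, and in T4D36.5 at 122.5, 123.3 and 126.3 CPM, against 55.0 to 81.7 CPM. The ratio of means was 1.42 in V25, 1.36 in V36.5, 2.09 in T0-N, 1.86 in T4D25 and 1.74 in T4D36.5. The edgeR quasi-likelihood test of any difference among the 4 strain codes gave an adjusted p of 0.0123 in V25, 0.00187 in T0-N, 0.00123 in T4D25 and 0.00144 in T4D36.5. In V36.5 it gave 0.103, and 0.0231 with the batch as a block. zip2 and its pairs with strain 86 were followed after seeing the data, and the p values do not allow for that choice. Against strain 97, the log2 difference was 1.03 in T0-N (standard error 0.140, adjusted p = 0.00883), 0.95 in T4D25 (standard error 0.124, adjusted p = 0.00715) and 0.78 in T4D36.5 (standard error 0.155, adjusted p = 0.0484) by the same test, where 0.134%, 0.084% and 0.315% of genes were called between these strains. In fits without a replicate this pair was called in 1 of 3 cases in T0-N and in T4D25 and in 0 of 3 in T4D36.5 (adjusted p from 0.183 to 1.00). It was not called in V25 or V36.5 (adjusted p = 1.00 in both, and 0.974 and 0.522 with the batch as a block).

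Fits with 2 replicates per strain called zip2 among strains in 0 of 3 cases in V25 (adjusted p from 0.0503 to 0.169), 1 of 3 in T0-N (0.0148 to 0.399), 1 of 3 in T4D25 (0.00182 to 0.330) and 2 of 3 in T4D36.5 (0.00919 to 0.0898). Without strain 86, no difference in zip2 was called in any condition, with adjusted p from 0.508 to 1.00. In G1_36.5, with the other strain codes, zip2 was at 30.5 to 45.8 CPM.

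SPNCRNA.1622, a non-coding RNA on the opposite strand (chromosome II from 3605352 to 3607271 in ASM294v2), overlaps the start of zrt1 by 73 bases. The labels name a stranded library kit. The strand setting of the counting is not given in the sources used here, so reads in the shared bases may belong to either gene. In V25, SPNCRNA.1622 was at 18.6, 21.4 and 22.4 CPM in strain 86 and between 1.25 and 15.2 CPM in the others. Its lowest library there held 3 counts, the floor. The pair of strains 86 and 97 was not called in V25 by edgeR's quasi-likelihood test. In V36.5, SPNCRNA.1622 was at 38.0, 19.8 and 28.8 CPM in strain 86 and between 0.687 and 5.16 CPM in the others. Its lowest library there also held 3 counts. In T0-N, it was at 32.1, 50.1 and 27.3 CPM in strain 86, from 9.26 to 22.2 CPM in strains 92 and 93 and from 2.59 to 6.41 CPM in strain 97.

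SPNCRNA.1622 was called among strains in V25 (adjusted p = 0.0201), V36.5 (adjusted p = 0.00035), T0-N (adjusted p = 0.0135) and T4D36.5 (adjusted p = 0.0114), but not in T4D25 (adjusted p = 0.254), all by edgeR's quasi-likelihood test. In V36.5 the call held in all 3 fits without a replicate (adjusted p up to 0.0361). It held in 1 of 3 such fits in V25, in 0 of 3 in T0-N and in 1 of 3 in T4D36.5, with adjusted p up to 0.562. In T4D36.5, its 12 libraries were at 19.7 to 61.8 CPM and strain 97 was the lowest, while zrt1 was lowest in strain 92. It rose from T4D25 to T4D36.5 by 2.12 on the log2 scale (standard error 0.190, adjusted p = 1.36e-13), while zrt1 had a log2 fold change of −0.41 in the same comparison (−0.93 without strain 86). Strain 86 was thus the highest for both RNAs in V25, V36.5 and T0-N, while over all strains the step to T4D36.5 took them in opposite directions. In single strains, the log2 fold change of zrt1 was 0.81 in strain 86 and between −1.69 and −0.23 in the others. SPNCRNA.1622 rose in strain 86 as well, from a mean of 6.07 CPM to 40.3 CPM, so both RNAs rose in that strain.

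**Figure D2:**
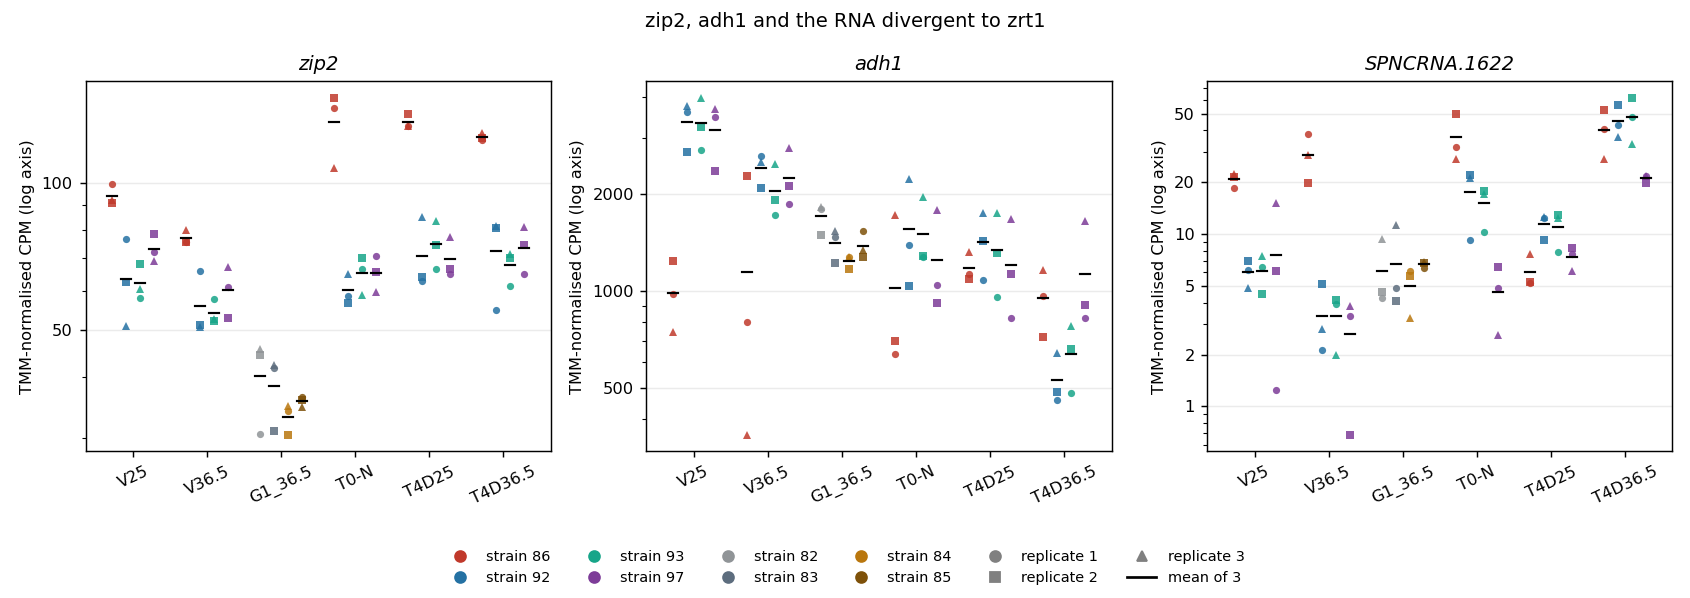
Levels of zip2, adh1 and SPNCRNA.1622, the RNA that overlaps the start of zrt1, in TMM-normalised CPM on log axes, by growth condition, with points, colours and bars for libraries, strain codes and means of 3. In V25 strain 86 is above the other strains for zip2 and SPNCRNA.1622 and below them for adh1, and only zip2 keeps strain 86 apart in all 5 conditions that used it.

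zym1 (SPAC22H10.13, chromosome I from 2381690 to 2382200 in ASM294v2) spanned the widest range of the members across conditions. It was at 1.55 to 26.1 CPM in V25, from 4 to 50 counts per library. In V36.5 it was at 9.60 to 25.7 CPM, and in G1_36.5 at 31.8 to 81.0 CPM, with a median of 56.8 CPM. In T0-N it was at 332 to 1509 CPM, with a median of 940 CPM.

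zym1 reached its highest level in T4D25, at 817 to 2345 CPM with a median of 1859 CPM, and was at 591 to 1463 CPM in T4D36.5. The log2 fold change from V25 to T0-N was 7.30 in the edgeR fit and between 5.86 and 8.59 in the single strains. All 12 libraries of T0-N lay above all 12 of V25, which was also the case for 22.7% of the 6330 genes tested. In the same way, all 12 libraries of G1_36.5 lay above those of V36.5 for zym1, as for 6.34% of 6219 genes, but these conditions had different strain codes and the arrest cannot be told apart from the strains. Per kilobase of transcript, zym1 went from the lowest of the 7 members in V25, with a median of 10.995 CPM per kb, to the highest in T4D25, at 3637 CPM per kb.

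Strain 86 had the lowest zym1 levels in starved cells. In T0-N, strain 86 was at 508, 542 and 332 CPM, and the other 9 libraries ranged from 565 to 1509 CPM. In T4D25, strain 86 was at 817, 1073 and 1546 CPM, against 1785 to 2345 CPM, and in T4D36.5 at 591, 931 and 986 CPM, against 1012 to 1463 CPM. The ratio of means was 0.424, 0.580 and 0.653 in these conditions, and strain 86 was below all other libraries in each. This was the case for 0.789%, 1.66% and 1.03% of the genes tested in T0-N, T4D25 and T4D36.5. In V25, strain 97 was the highest instead, at 9.16, 9.46 and 26.1 CPM, against 1.55 to 8.62 CPM in the others (1.13% of genes).

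zhf1 (SPAC23C11.14, chromosome I from 2158659 to 2160086 in ASM294v2), the gene of the endoplasmic reticulum zinc transporter, varied less. It was highest in V25, with a median of 318 CPM (245 to 423 CPM). The medians were 239 CPM in V36.5, 228 CPM in G1_36.5 and 222 CPM in T0-N, with ranges that overlapped each other. In T4D25 it was at 115 to 151 CPM, and all 12 libraries lay below those of T0-N (193 to 253 CPM), as they did for 3.51% of the 6330 genes tested. T4D36.5 was at 117 to 171 CPM and overlapped T4D25. The log2 fold change from T0-N to T4D25 was −0.75 and lay between −0.77 and −0.67 in each strain. No strain code stood apart from the others for zhf1 in any condition.

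cis4 (SPAC17D4.03c, chromosome I from 4726782 to 4729409 in ASM294v2) and zrg17 (SPBC16E9.14c, chromosome II from 1944937 to 1946568 in ASM294v2), whose products act together, were both lowest in T4D36.5. cis4 was at 41.9 to 90.5 CPM there and at 93.4 to 158 CPM in T4D25, without overlap, as for 7.11% of 6330 genes. The log2 fold change between them was −1.07, and between −1.36 and −0.79 in single strains. In T4D36.5, strain 93 was the lowest for cis4, at 41.9, 52.0 and 48.7 CPM, against 55.4 to 90.5 CPM in the other 9 libraries (0.515% of genes). cis4 overlaps 65 bases of cdc45, a replication gene on the opposite strand.

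zrg17 was at 10.8 to 21.2 CPM in T4D36.5 and at 13.2 to 37.2 CPM in T4D25, which overlapped, with a log2 fold change of −0.57. Its medians were 24.7 CPM in V25, 19.6 CPM in V36.5, 17.8 CPM in G1_36.5, 24.4 CPM in T0-N, 20.1 CPM in T4D25 and 13.5 CPM in T4D36.5, and the ranges of all neighbouring conditions in this order of levels overlapped. Per kilobase, the median of cis4 was 50.3 CPM per kb in T4D25 and that of zrg17 was 12.3 CPM per kb.

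loz1 (SPAC25B8.19c, chromosome I from 4192070 to 4195228 in ASM294v2), the gene of the repressor, was at medians of 48.4 CPM in V25, 57.1 CPM in V36.5, 39.9 CPM in G1_36.5, 65.5 CPM in T0-N, 80.7 CPM in T4D25 and 79.9 CPM in T4D36.5. The ranges of all these conditions overlapped. In strain 86 of V25, where zrt1 and adh4 were high, loz1 was at 46.5, 51.0 and 101 CPM, and in the other strains it ranged from 36.0 to 95.7 CPM. The ranges of loz1 RNA in strain 86 and the other strains overlapped in V25. Loz1 protein was not measured, and a link of loz1 to the levels of zrt1 and adh4 was not tested. The loz1 libraries were ordered by batch. Replicate 3 was the highest of the 3 replicates for loz1 in 23 of the 24 groups of strain and condition, and replicate 1 the lowest in 22.

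The same order of batches was seen in other members. Replicate 3 was the highest for cis4 in 18 and for zrg17 in 19 of the 24 groups, and replicate 1 the lowest in 22 and 20. For zhf1, replicate 2 was the highest in 19. For zrt1 and adh4, no batch was the highest in more than 9 and 12 groups. Batch 3 was also the shallowest, and the part of depth in this order was not tested. Each group of strain and condition holds all 3 batches.

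**Figure D3:**
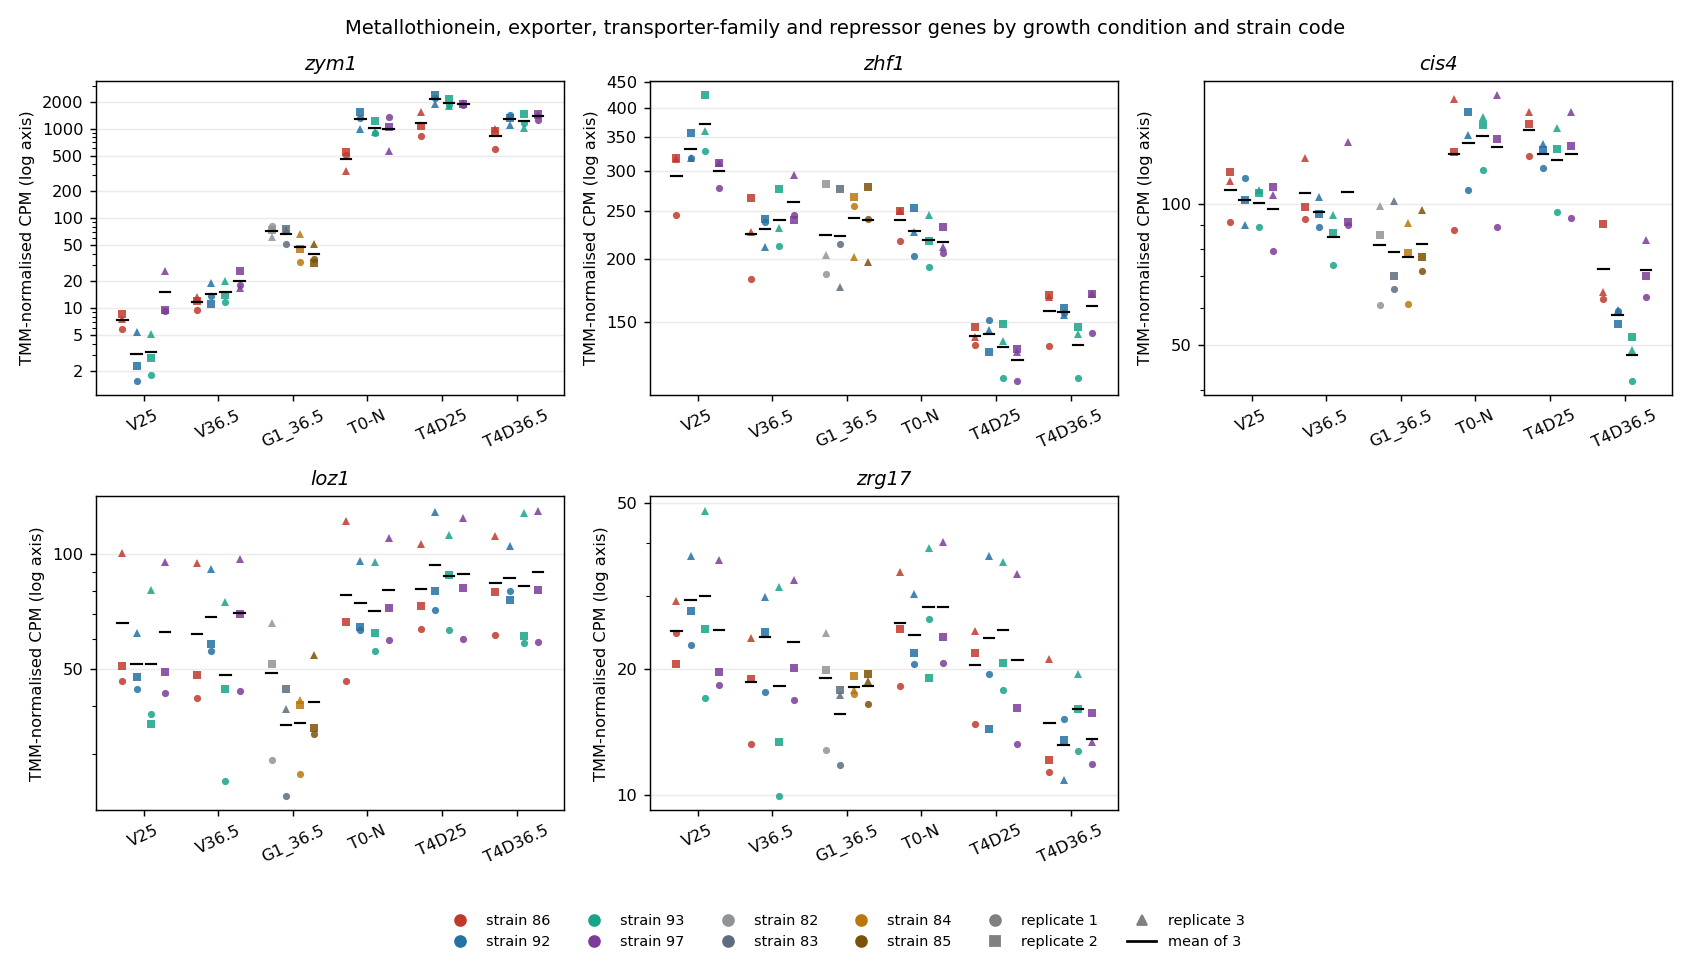
Levels of zym1, zhf1, cis4, loz1 and zrg17 in TMM-normalised CPM on log axes, by growth condition, with 1 point per library, colours for strain codes, shapes for replicates and bars for means of 3. zym1 has medians of 5.62 CPM in V25 and 1859 CPM in T4D25, cis4 is lowest in T4D36.5, and triangles (replicate 3) are the highest points of loz1 in 23 of 24 groups.

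Set side by side, the members had no common direction. In V36.5 over V25, zym1 and loz1 had positive log2 fold changes (1.46 and 0.10) and the other 5 negative ones, down to −1.17 for adh4. In T0-N over V25, zym1, loz1 (0.38) and cis4 (0.36) were positive. In T4D25 over T0-N, zym1 (0.95) and loz1 (0.18) were positive, and in T4D36.5 over T4D25, zhf1 (0.18) was the one positive value. The median of the 7 was −0.39, −0.06, −0.10 and −0.41 in these comparisons, beside 0.03, 0.11, −0.02 and −0.02 over all genes tested.

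In G1_36.5 over V36.5, zym1 alone was positive (1.86). Strain 86 is in V36.5 and not in G1_36.5, and the values of zrt1 (−0.71) and adh4 (−1.08) were 0.15 and 0.13 without it. The comparison is between different strain codes throughout.

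**Figure D4:**
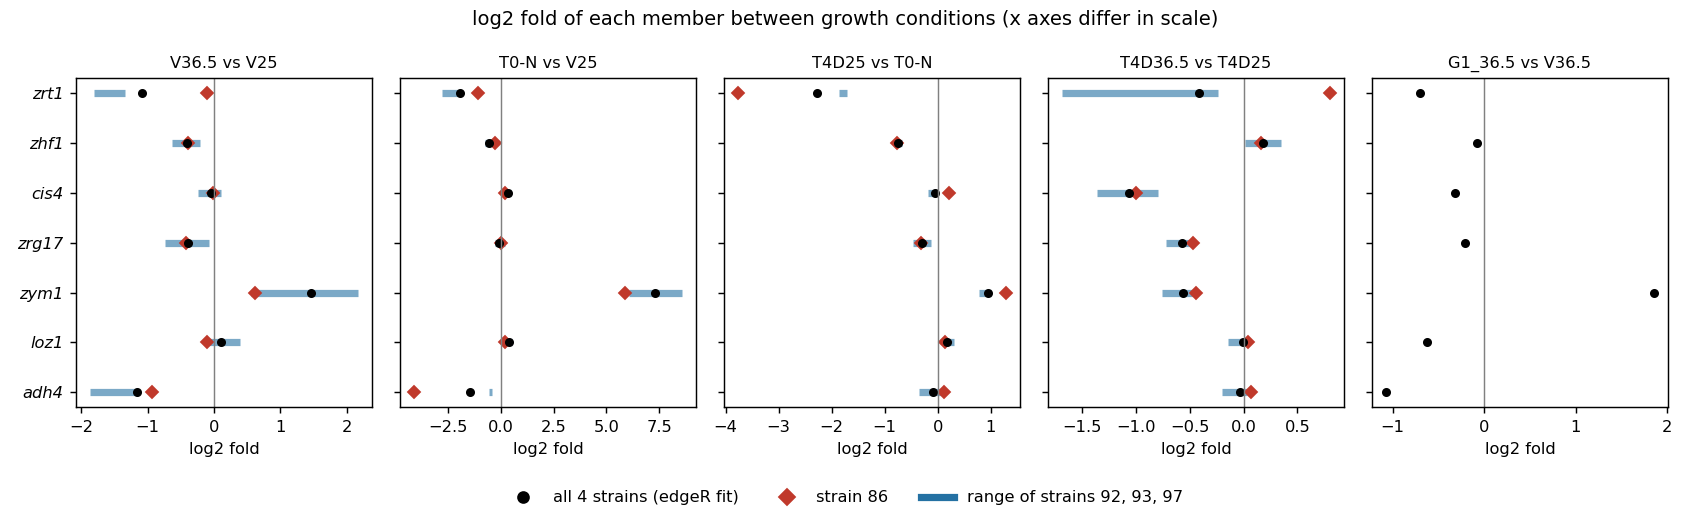
log2 fold change of each member (rows) in 5 comparisons of growth conditions (panels, whose horizontal axes differ in scale), with black points for the edgeR fit over all strains, red diamonds for strain 86 and blue bars for the range of strains 92, 93 and 97. Strain 86 lies outside the bar for zrt1 in all 4 panels that show it and furthest for adh4 in T0-N over V25, at −4.11 against −0.57 to −0.41. It also lies outside by less for adh4 in V36.5 over V25 (−0.93 against −1.87 to −1.14) and for other members. An example is zhf1 in T0-N over V25, at −0.29 against −0.76 to −0.47.

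The related genes are 24 of 25 listed transporters of zinc and other metals, zinc-containing enzymes with other alcohol dehydrogenases, and genes of heavy metal defence. One listed name, pmi40, was not matched in the table. In V36.5 over V25, 7 were called higher and 11 lower by edgeR's quasi-likelihood test, where 34.0% and 29.3% of 6330 genes were. Without replicate 2, 4 were called higher and 8 lower. glo1 (glyoxalase I) rose by 0.93 on the log2 scale (standard error 0.112, adjusted p = 8.26e-10) and sod1 (copper-zinc superoxide dismutase) by 0.88. fba1 (fructose-bisphosphate aldolase) fell by 1.56, fet4, a low-affinity iron and zinc transporter gene, fell by 0.90, and fmd1, a formaldehyde dehydrogenase gene, fell by 0.77. hmt1, which encodes a vacuolar transporter of metal-binding peptides, rose by 0.56.

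In T0-N over V25, 7 were called higher and 10 lower, beside 44.4% and 37.7% of all genes. glo1 rose by 2.12 (standard error 0.115, adjusted p = 3.67e-22, edgeR), mmt1, a gene of the cation diffusion facilitator family, by 1.41, and sod1 by 1.29. met26 (methionine synthase) fell by 2.46, hem2 (porphobilinogen synthase) fell by 2.24 and adh1 fell by 0.92.

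In T4D25 over T0-N, 10 were called higher and 4 lower, beside 23.9% and 28.4% of all genes. The number called lower was 1 without replicate 1 and 8 with the batch as a block. fmd2 rose by 4.11 (standard error 0.128, adjusted p = 9.00e-30, edgeR), fba1 by 0.79 and nce103 (carbonic anhydrase) by 0.58. fmd3 fell by 1.17, fet4 fell by 0.59 and mmt1 fell by 0.42. Without replicate 1 the changes of fet4 and mmt1 were not called (adjusted p = 0.0976 and 0.0736), nor was that of mmt1 without replicate 3 or without strain 86 (adjusted p = 0.0605 for the latter). An antisense RNA gene covers 1600 bases of fmd2, and opposite-strand RNA genes overlap fet4 by 660 bases and hem2 by 482, so reads of these pairs may be shared if strand was not used in counting.

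In T4D36.5 over T4D25, 6 were called higher and 12 lower, beside 33.8% and 35.3% of all genes. nce103 rose by 1.65 (standard error 0.135, adjusted p = 6.39e-15, edgeR), sod1 by 1.40 and hem2 by 0.65. fba1 fell by 1.57, fmd1 fell by 1.12 and fet4 fell by 0.73. In G1_36.5 over V36.5, 5 were called higher and 10 lower, beside 34.1% and 34.5% of 6219 genes. With the batch as a block, 8 were called higher. adh8, an alcohol dehydrogenase gene, rose by 1.29 (standard error 0.112, adjusted p = 2.83e-09, edgeR), nce103 by 1.02 and fmd3 by 0.78. met26 fell by 1.21, zip2 fell by 0.77 and pdt1, an Nramp family metal transporter gene, fell by 0.63. The call of nce103 was lost without replicate 1 (adjusted p = 0.0681).

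Among strain codes, 4 of the 24 related genes were called in V25 (adh1, zip2, hem2 and abc2), beside 19.1% of all genes, and 0 in V36.5, where edgeR called 6.31% of all genes, 4 of the 24 had an unadjusted p below 0.05, DESeq2 called 3 and edgeR's likelihood ratio test 2. adh8 was the gene called in G1_36.5, zip2 the one in T0-N, and zip2 and adh8 those in T4D25, beside 10.9%, 0.94% and 1.75% of all genes. In T4D36.5, 8 were called (nce103, zip2, fmd2, pcs2, fba1, fet4, abc2 and adh1), beside 26.1%. With the batch fitted as a block, the counts were 9 in V25, 4 in V36.5, 7 in G1_36.5, 6 in T0-N, 4 in T4D25 and 12 in T4D36.5.

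The genes most like each member were taken by Pearson's r over the 24 means of strain and condition in log2 CPM. Candidates were genes other than the members with a mean log2 CPM of at least 1, so members were not compared with each other. The 24 means share conditions and libraries, and r is a description with no test. zym1 had the closest neighbours, with SPAC15E1.02c (r = 0.990), gem6-antisense-1 (r = 0.987) and SPAC637.03 (r = 0.986). zhf1 was most like rpa43 (r = 0.962), which encodes an RNA polymerase I subunit, fra2 (r = 0.945) and dph5 (r = 0.932). zrt1 was most like dph5 (r = 0.875), pdi1 (r = 0.871) and sib3 (r = 0.863).

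For loz1 the nearest were wdr7 (r = 0.923), SPBC16G5.16 (r = 0.923) and aly2 (r = 0.921), and for cis4 toa2 (r = 0.932), scd2 (r = 0.932) and mug122 (r = 0.929). zrg17 was most like cdc13 (r = 0.901), the mitotic cyclin gene, sac11 (r = 0.888) and psh3 (r = 0.885). Among these non-member genes adh4 had no close neighbour, with r of 0.684 for efr3, 0.665 for ppk29 and 0.659 for scp1.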

How the data were processed

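The authors depleted ribosomal RNA, made stranded libraries, aligned reads to ASM294v2 with STAR 2.7.10a and counted them in annotated exons with featureCounts 1.5.1, per the methods and the submitters' processing notes. The authors deposited raw counts for 7014 genes and 92 spike-in RNAs, without normalisation. The 3 libraries of a group are biological triplicates per the study's design text, and no pair of libraries was identical.

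Every test used edgeR 4.0.16 (filterByExpr, TMM, quasi-likelihood, Benjamini-Hochberg over all genes, threshold 0.05) in R 4.3.3. The first 4 growth comparisons were fitted over 60 libraries, G1_36.5 against V36.5 over 24, and strains within the 12 libraries of a condition. All rows entered the fits and spike-in RNAs were dropped afterwards. CPM were computed over gene rows of 72 libraries, with a prior count of 2 on the log2 scale. Alternatives were DESeq2 1.42.0, its size factors, a likelihood ratio test, other count filters, the batch as a block, spike-in RNAs left out, and each replicate left out.

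The batch numbers come from the labels and pair the samples. Deviations from group means correlated at a mean of 0.425 between libraries of a condition with the same number and −0.208 with different numbers. On simulated counts, the T0-N against V25 fit recovered 98% of 2-fold and 100% of 4-fold changes, and the strain test of V25 85% and 97%. False calls were 1.49% and 5.21% of the calls. The simulated counts held no batch effect and a spread that depended only on level. These shares therefore do not measure recovery in the libraries themselves, which share batch deviations.

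The members and lists were chosen with earlier results of these data known. Named genes include the 7 members. For each growth comparison, up to 3 related genes called with the largest rise and up to 3 with the largest fall are named. Also named are genes that overlap a member or adh1 on the opposite strand. For each member, the 3 genes of highest r other than members are named. zip2, adh1 and the pairs with strain 86 were followed across conditions after seeing the data. Overlapping genes of which no values are given are sir2 at zrt1 (114 bases), SPAC25B8.18 at loz1 (88 bases) and cdc45 at cis4 (65 bases). Promoter sequence is RefSeq's, from ASM294v3, and no coordinate was converted between builds. The genotype of each strain code was not used.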

Additional observations from a re-analysis of the deposited data

Results flagged for a closer look

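In V36.5 over V25, loz1 was higher in all 3 replicates of strains 92 and 97, with a mean log2 change of 0.39 in strain 92, and lower in all 3 of strain 86. In T0-N over V25, zrg17 was higher in all 3 replicates of strain 97 (0.20) and lower in all 3 of strain 92, and zip2 was higher in all 3 of strain 86 (0.48) and lower in all 3 of strain 97. In T4D36.5 over T4D25, adh4 was higher in all 3 replicates of strain 86 (0.065) and lower in all 3 of strain 93. These opposite directions were found by pairing replicates of the same number, and the differences between strains were not tested. How often genes of the whole table do the same was not counted. With 3 replicates such patterns also arise without a strain difference, so nothing is read from these cases.

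Spike-in RNAs, whose own levels were not compared, had a median of 200933.5 counts per library in T0-N, 128904 in T4D25 and 124708.5 in T4D36.5. In V25, V36.5 and G1_36.5 they had between 0 and 33 counts. Their rows were part of the tables fitted by edgeR, and CPM were computed without them.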

How the results depend on the processing

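Fitting the replicate block, which pairs libraries of a batch, gave 9, 4, 7, 6 and 4 related genes among strains in V25, V36.5, G1_36.5, T0-N and T4D25, against 4, 0, 1, 1 and 2. Between growth conditions it moved the related genes called lower in T4D25 over T0-N from 4 to 8 and those called higher in G1_36.5 over V36.5 from 5 to 8, and no other such count by over 1.5 times. DESeq2 gave 3 among strains in V36.5 and 2 in G1_36.5, the likelihood ratio test gave 2 in V36.5 and 4 in T4D25, and a minimum of 10 counts in every library gave 1 in V36.5. Without strain 86, chosen after seeing the data, 0 were called in V25, T0-N and T4D25. Leaving out 1 replicate gave 1 to 2 in V25, 0 to 1 in V36.5, 0 to 2 in G1_36.5, 0 to 1 in T0-N, 0 to 1 in T4D25 and 1 to 8 in T4D36.5.

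The number of members with a positive log2 fold change in T4D36.5 over T4D25, 1, became 3 with DESeq2 size factors and with the minimum of 10 counts, 2 with spike-in RNAs left out, and 1 to 3 without a replicate. In T4D25 over T0-N it went from 2 to 1 with that minimum, under which zym1 was not tested, and was 3 without any 1 replicate. In G1_36.5 over V36.5 it went from 1 to 2 with the minimum, to 3 without strain 86 and to 1 to 3 without a replicate. In that comparison zrt1 and adh4 turned to 0.15 and 0.13 without strain 86. The other rises were small negative values that turned positive. They were loz1 (−0.0095) and adh4 (−0.029) in T4D36.5 over T4D25, and cis4 (−0.057) or adh4 (−0.097) in T4D25 over T0-N. In G1_36.5 over V36.5 they were zhf1 (−0.080) and zrg17 (−0.21). Why they turned was not tested.

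Batch 3 is the shallowest, V25 zym1 rests on 4 to 50 counts per library, and with 3 libraries per strain the calls of zip2 among strains in V25, and of SPNCRNA.1622 in T0-N, were lost in each fit without a replicate.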
